A study of Mus musculus with 8 samples.

Results

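Cntnap2 and Nlgn1 are long neuronal genes for cell adhesion proteins, and the RNA of both was recovered crosslinked to Ptbp2 in the embryonic mouse cortex. Tags, the short sequenced fragments of crosslinked RNA, were assigned to a gene when their midpoint lay on its strand within chr6:45009000-47255000 (plus strand, Cntnap2) or chr3:25325000-26235000 (minus strand, Nlgn1), both in mm9 coordinates. These intervals held 2427 and 5050 tags, 7477 of 3098854 in all (0.241%, exact 95% interval 0.236 to 0.247%). The data came from wild-type CD1 embryos at embryonic day 18.5, with 4 HITS-CLIP libraries from each of 2 brains. In HITS-CLIP, ultraviolet light links a protein to the RNA it touches, an antibody recovers the complexes and the bound fragments are sequenced. All groups share genotype, strain, tissue and age, and no library of another genotype or antibody and no input RNA was analysed here, so the labelled tissue could not be checked against RNA levels of its markers. The 8 libraries held 228424 to 545387 tags, 1932995 in brain 1 and 1165859 in brain 2. In brain 2, library 4 was the shallowest and had the most rows that repeated the library, strand, start and end of another (18.6%, against 8.09 to 12.8% in the other libraries), so results that rest on it are also given without it.

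Ptbp2 is the neuronal relative of the polypyrimidine tract binding protein. It binds pyrimidine-rich stretches of pre-mRNA, mostly in introns, and often represses the inclusion of nearby exons while neurons mature. Cntnap2 encodes Caspr2, a membrane protein of the neurexin superfamily that helps to gather potassium channels beside the nodes of myelinated axons and is also found at synapses. Nlgn1 encodes neuroligin 1, a postsynaptic protein that binds presynaptic neurexins, acts mainly at excitatory synapses and is itself alternatively spliced. Nearly all of the length of both genes is intron. Crosslinked tags count contacts weighted by how much of the RNA is present, so strong binding to a scarce RNA and weak binding to an abundant one cannot be told apart here, nor can fewer cells and less RNA per cell.

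Sense tags followed the limits of both genes at their edges. On the sense strand of Cntnap2, 294 tags lay in the first 100 kb inside the 5′ edge of the interval, against 34 in the 100 kb before that edge. At the other end, 73 tags lay in the last 100 kb inside and 17 in the 100 kb beyond. For Nlgn1 the same counts were 385 inside and 48 before the 5′ edge, and 165 inside and 16 beyond the 3′ edge. Sense tags thus stepped up at the 5′ edge of each interval and down at its 3′ edge. Tags of the opposite strand showed no such step up into the genes: for Cntnap2 they numbered 24 inside and 57 before the 5′ edge, and for Nlgn1 8 inside and 30 before.

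Tags on the opposite strand made up a far smaller share of the tags in Nlgn1 than in Cntnap2. This share also depends on the sense tags, which were denser in Nlgn1. In Cntnap2 the opposite strand held 623 of 3050 tags (20.4%, exact 95% interval 19.0 to 21.9%), with 17.8 to 19.7% over the libraries of brain 1 and 20.8 to 25.7% over those of brain 2. In Nlgn1 it held 125 of 5175 tags (2.42%, exact 95% interval 2.01 to 2.87%), with 1.59 to 2.54% in brain 1 and 1.43 to 4.44% in brain 2. The ranges of these shares did not overlap between the genes. These intervals cover counting error only. Per length and depth, the opposite strand held 0.0912 ± 0.0105 tags per 1000000 tags of the library per kb in Cntnap2 and 0.0457 ± 0.0151 in Nlgn1 (SD, n = 8 libraries). The RefSeq table of another assembly (GRCm38.p6) lists 10 further genes inside Cntnap2, among them 4 lncRNAs, 1 snoRNA and 5 pseudogenes, and 2 that overlap Nlgn1. The opposite strand of Cntnap2 was fullest 650 to 700 kb from the 5′ edge, with 56 tags beside 69 on the sense strand. The sense strand held more tags in most steps of 50 kb within Cntnap2, but not in all. The opposite strand held more in some, as at 900 to 950 kb (23 against 14) and 1350 to 1400 kb (28 against 19). Tags of the listed genes were not set apart, and their part in the opposite-strand counts was not tested.

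Nlgn1 carried more Ptbp2 tags per length than Cntnap2 in each of the 8 libraries. In brain 1, Cntnap2 held 442, 399, 354 and 351 tags in libraries 1 to 4, or 810, 871, 770 and 747 tags per 1000000 tags of the library (CPM). In brain 2 it held 191, 240, 271 and 179 tags, or 714, 729, 795 and 784 CPM. Nlgn1, which is the shorter gene, held 973, 865, 780 and 766 tags in brain 1, or 1784, 1887, 1697 and 1631 CPM. In brain 2 it held 341, 430, 481 and 414 tags, or 1275, 1306, 1411 and 1812 CPM. Cntnap2 therefore varied little among libraries, while Nlgn1 in brain 2 had 3 libraries at a lower level and library 4 at the level of brain 1. Per kb of interval, the level was 0.346 ± 0.0222 CPM in Cntnap2 and 1.76 ± 0.262 CPM in Nlgn1 (SD, n = 8). The mean log2 ratio of Cntnap2 to Nlgn1 tags per kb was -2.33 ± 0.16 (SD over 8 libraries), a 5.04-fold higher density in Nlgn1, and its sign was the same in 8 of 8 libraries (two-sided exact sign-flip permutation test, p = 0.00781, the smallest that 8 libraries can give, adjusted p = 0.0109 over the 7 planned tests). The 4 libraries of a brain share an animal, so every p given here takes the library, not the animal, as its unit. The sign-flip tests pool the libraries of 2 animals, so their spread holds differences within and between the brains. A test between the brains compares 2 animals, 1 in each group, against the spread between libraries. Within each brain, libraries 1 and 2 are titled with the letter a and libraries 3 and 4 with b, and no label explains these letters. If libraries of a letter are repeats of 1 preparation, the 8 libraries stand for 4, and the smallest p of the exact sign-flip tests is then 0.125.

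Set beside all strand-specific windows that held a tag, Nlgn1 was densely tagged and Cntnap2 was moderately so. Of the 226 windows of 10 kb that touch Cntnap2, 209 held a tag, 39 (17.3%) held 20 or more, and the median was 6 tags. All 92 windows of Nlgn1 held tags, 67 (72.8%) held 20 or more, and the median was 45. Over the 389611 windows with at least 1 tag in the series, the median was 3 and 8.94% held 20 or more. Empty windows count in the values of the genes but not in these. The windows of the series were also not limited to transcribed regions.

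**Figure D1:**
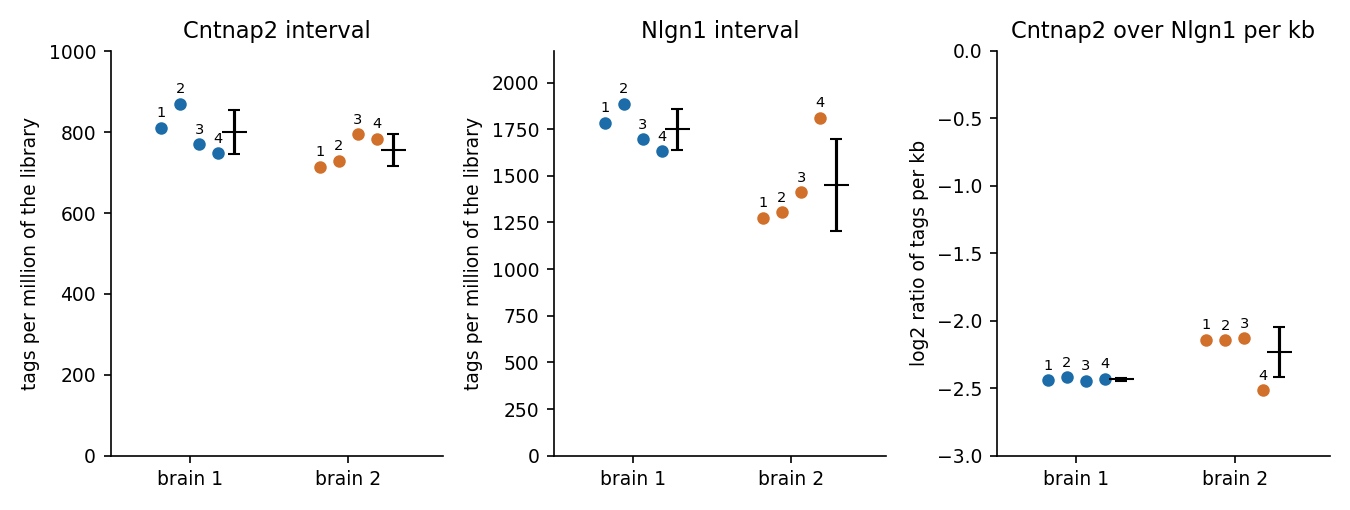
CPM (tags per 1000000 tags of the library) in the Cntnap2 and Nlgn1 intervals and the log2 ratio of their tags per kb, by library (points, numbered by library) with the mean and SD of 4 libraries (bars), brain 1 left and brain 2 right. Library 4 of brain 2 holds 1812 CPM of Nlgn1, inside the range of brain 1, where the other libraries of brain 2 hold 1275 to 1411.

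Neither gene passed the test between the brains. The mean level of Cntnap2 was 799.6 ± 54.0 CPM over brain 1 libraries, against 756 ± 39.8 CPM over brain 2 libraries (SD, n = 4 libraries each), a log2 ratio of brain 1 over brain 2 of 0.08 (two-sided exact permutation test, p = 0.229, adjusted p = 0.229), and its ranges overlapped. Its direction depended on the scaling, since TMM-type scaling, which sets libraries level by the trimmed average of window ratios, gave a log2 ratio of -0.09. The mean level of Nlgn1 was 1750 ± 111 CPM over brain 1 libraries, against 1451 ± 248 CPM over brain 2 libraries (SD, n = 4 each), a log2 ratio of 0.27 (exact permutation p = 0.114, adjusted p = 0.133). With 4 libraries against 4 the smallest possible p is 0.0286. Without library 4 of brain 2 every library of brain 1 lay above those of brain 2 for Nlgn1, with a log2 ratio of 0.39 (exact permutation p = 0.0286, adjusted p = 0.0333). Only library 4 of brain 2 reached the range of brain 1, so leaving it out fixed this p at its smallest. That library had the largest share of repeated rows in Nlgn1 too (29.2%, against 7.92 to 20% in the other 7 libraries). With repeated rows counted once the log2 ratio of Nlgn1 over all 8 libraries was 0.27 (adjusted p = 0.0857), and with TMM-type scaling it was 0.11.

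The ratio between the genes showed the same split, but it uses the same Nlgn1 counts and is not separate evidence of it. The log2 ratio of Cntnap2 to Nlgn1 per kb ran from -2.44 to -2.42 in the 4 libraries of brain 1, and was -2.14, -2.14, -2.13 and -2.51 in libraries 1 to 4 of brain 2. It averaged -2.43 ± 0.01 in brain 1 and -2.23 ± 0.19 in brain 2 (SD, n = 4 each), a difference of -0.20 that did not pass (two-sided exact permutation test, p = 0.143). Without library 4 of brain 2 the difference was -0.29 (exact permutation p = 0.0286, the smallest that 4 against 3 can give). Library 4 was the only library of brain 2 not above those of brain 1, so leaving it out fixed this p. This test was added after the values were seen.

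Along Cntnap2 the tags were concentrated toward the 5′ end. Upstream of the midpoint of the interval lay 71.4 ± 2.3% of its tags (SD, n = 8 libraries), and the share was above 50% in 8 of 8 libraries (two-sided exact sign-flip permutation test, p = 0.00781, adjusted p = 0.0109). It was 71.3, 71.2, 71.5 and 68.1% in libraries 1 to 4 of brain 1 and 75.4, 71.7, 73.1 and 68.7% in those of brain 2, so the brains overlapped. When the interval was cut into 5 equal segments from its 5′ edge, the first held 47.8 ± 0.66% of the tags in brain 1 and 44.8 ± 3.07% in brain 2, the second 17.9 ± 2.20% and 21.9 ± 1.04%, the third 10.7 ± 1.77% and 9.66 ± 2.38%, the fourth 13.7 ± 1.68% and 14.9 ± 4.73%, and the last 9.83 ± 1.21% and 8.78 ± 0.65% (SD, n = 4 each). Density was 2.53 tags per kb over all libraries in the first segment and 0.510 in the last. Most of the decline lay before the third segment. Tags of the opposite strand did not follow this course: 50.7% of them lay upstream of the midpoint (exact 95% interval 46.7 to 54.7%), and the first segment held 13.8% of them.

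Nlgn1 had a different course, with most tags in the middle of the gene. Upstream of its midpoint lay 41.6 ± 1.9% of the tags (SD, n = 8), below 50% in 8 of 8 libraries (two-sided exact sign-flip permutation test, p = 0.00781, adjusted p = 0.0109). It was 39.9, 39.8, 42.4 and 39.7% in libraries 1 to 4 of brain 1 and 43.7, 41.2, 41.8 and 44.7% in those of brain 2. The third of 5 equal segments held 31.5 ± 2.02% of the tags in brain 1 and 33.4 ± 0.70% in brain 2, and the fourth 27.3 ± 1.09% and 23.99 ± 2.97%. The first held 10.1 ± 0.32% and 12.1 ± 1.17%, and the last 10.9 ± 1.70% and 10.97 ± 2.11% (SD, n = 4 each). Density was 8.88 tags per kb over all libraries in the third segment and 2.98 in the first. The last segment held 3.04 tags per kb, so both ends of Nlgn1 were sparse beside its middle. Both values lay above the 2.53 of the first segment of Cntnap2, but the segments of Cntnap2 are longer. Over an equal 100 kb the order held at the 5′ edge only. The first 100 kb of Nlgn1 held 385 sense tags and its last 100 kb 165, against 294 in the first 100 kb of Cntnap2.

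**Figure D2:**
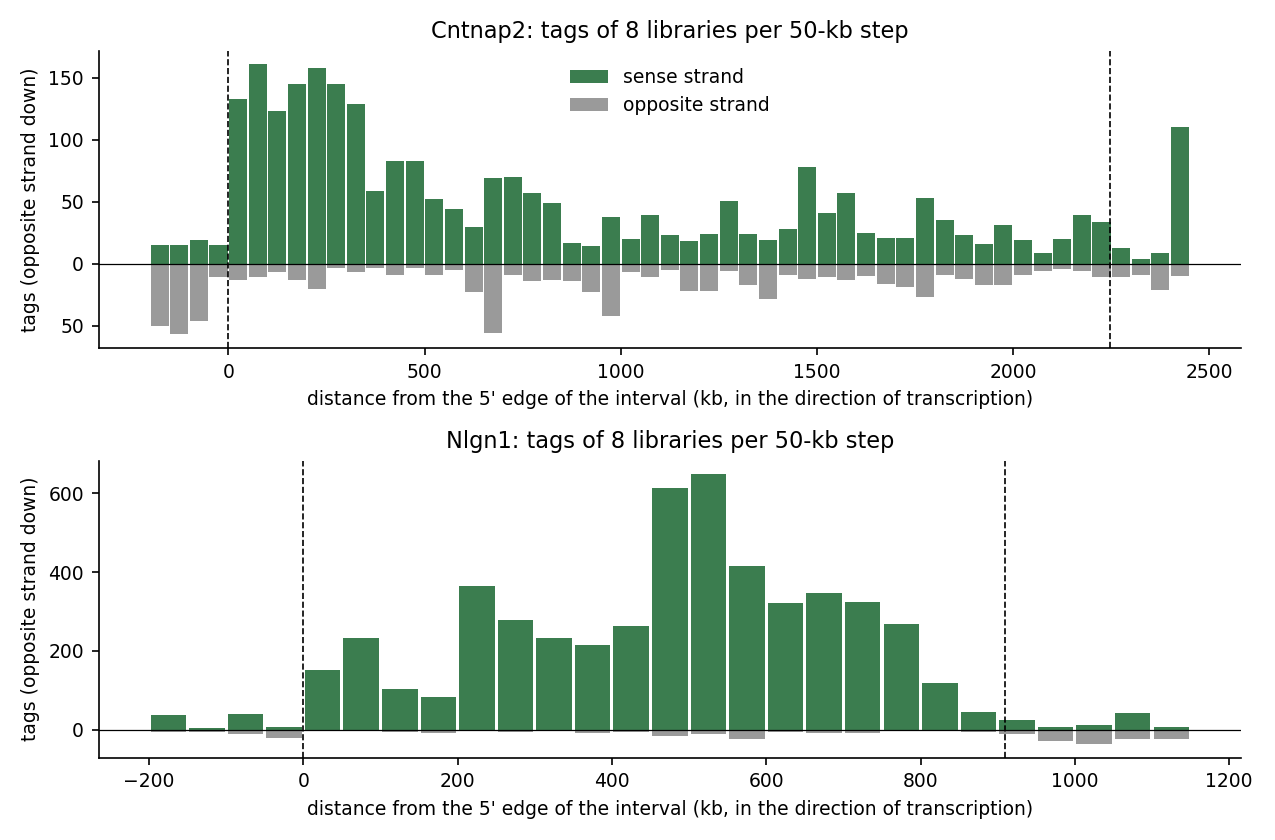
Tags of the 8 libraries in steps of 50 kb against distance from the 5′ edge of the interval, with sense-strand tags drawn up and opposite-strand tags drawn down, and dashed lines at the edges of the interval. In Cntnap2 the fullest step (161 tags) lies 50 to 100 kb from the edge. In Nlgn1 it lies 500 to 550 kb from the edge (649 tags).

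**Figure D3:**
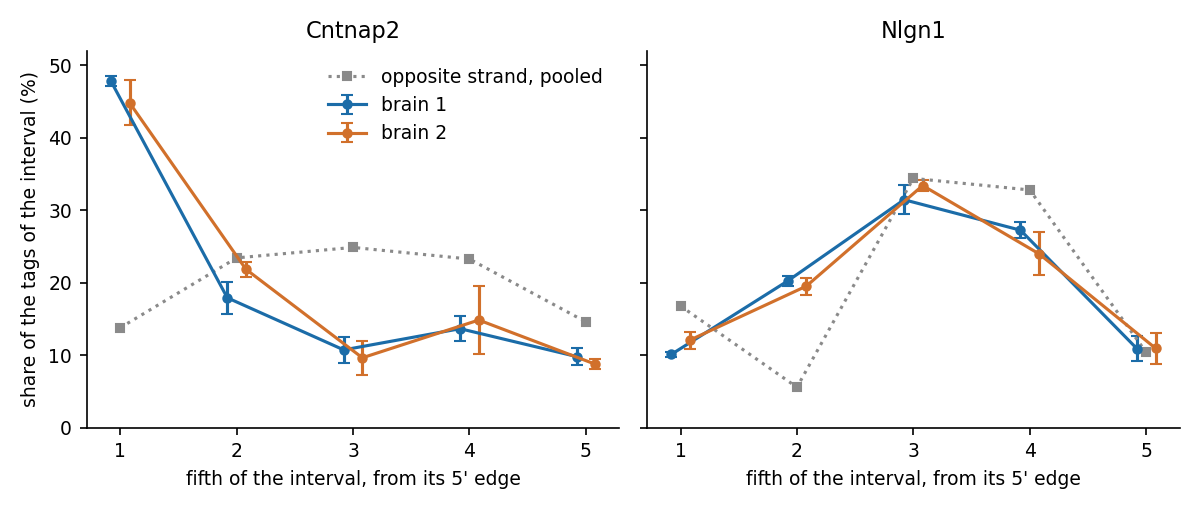
Share of the tags of each interval in 5 equal segments from its 5′ edge, as mean and SD of the 4 libraries of each brain (points and bars), with opposite-strand tags of all libraries pooled (grey squares). In Cntnap2 the first segment holds the most, 47.8% in brain 1 and 44.8% in brain 2, and in Nlgn1 the third does, 31.5% in brain 1 and 33.4% in brain 2.

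The fullest 100-kb windows of the genomic grid showed the same places. In Cntnap2 they were chr6:45200001-45300000 with 302 tags (198 in brain 1 and 104 in brain 2), chr6:45100001-45200000 with 283 (185 and 98) and chr6:45000001-45100000 with 245 (154 and 91). The first of these ranked 1323 among 52091 strand-specific 100-kb windows with a tag. In Nlgn1 they were chr3:25700001-25800000 with 1281 tags (826 in brain 1 and 455 in brain 2), chr3:25600001-25700000 with 802 (570 and 232) and chr3:25500001-25600000 with 645 (438 and 207). The window with 1281 tags, which holds 25.4% of the tags of Nlgn1, ranked 44 among the 52091. In steps of 50 kb from its 5′ edge, the emptiest part of Cntnap2 lay at 2050 to 2100 kb, with 9 sense tags and 6 on the opposite strand. The emptiest part of Nlgn1 lay at 850 to 900 kb, with 45 sense tags and 5 on the opposite strand.

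Focal contacts were assessed as clusters, runs of tags that overlap by 1 nt or more on a strand in the pooled libraries, with a height that is the largest number of tags over 1 base. Clusters of height 10 or more numbered 12 in Cntnap2 (5.34 per Mb) and 64 in Nlgn1 (70.3 per Mb), of 22803 in the series. With repeated rows counted once they numbered 8 in Cntnap2 and 38 in Nlgn1, of 14812 in the series, and the tallest had a height of 26 in Cntnap2, against 40 with all rows, and of 64 in Nlgn1, against 137. Heights and counts of single clusters are those of all rows. Single tags that overlapped no other made up 41.0% of the tags in Cntnap2 and 23.3% in Nlgn1, against 38.2% in the whole series. The share of tags that lay in clusters of height 10 or more set the genes on opposite sides of the rest. In Cntnap2 it was 6.79 to 11.5% over the libraries of brain 1 and 8.38 to 12.2% over those of brain 2, where the tags outside it had 15.1 to 15.6% in brain 1 and 15.5 to 18.7% in brain 2. The mean difference was -6.30 ± 2.24 percentage points, Cntnap2 minus the rest (SD, n = 8, two-sided exact sign-flip permutation test, p = 0.00781, adjusted p = 0.0109). In Nlgn1 the share was 22.8 to 27.2% in brain 1 and 23.8 to 33.6% in brain 2, a mean difference of 10.4 ± 2.5 percentage points, Nlgn1 minus the rest (SD, n = 8, two-sided exact sign-flip permutation test, p = 0.00781, adjusted p = 0.0109). A denser region reaches a height of 10 more easily, so the share in clusters moves with tag density. The clusters were also called on the pooled tags of the same libraries that were then tested. The libraries are therefore not independent in these tests, which cannot separate focal contact from tag density. With repeated rows counted once the differences were -3.55 for Cntnap2 and 7.39 for Nlgn1. With a height of 20 they were -3.0 for Cntnap2 and 3.19 for Nlgn1.

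**Figure D4:**
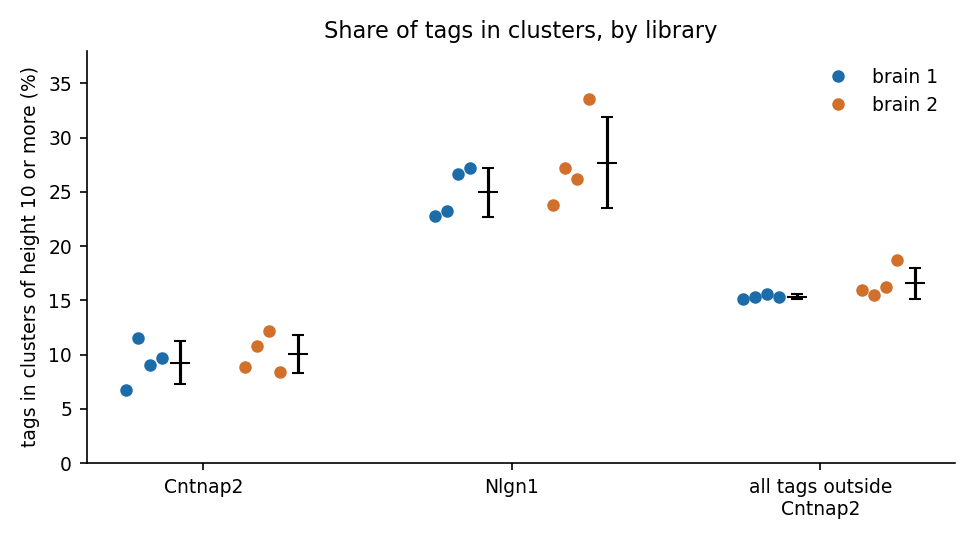
Share of tags in clusters of height 10 or more in Cntnap2, in Nlgn1 and in all tags outside Cntnap2, by library (points) with mean and SD of 4 libraries (bars), brain 1 left and brain 2 right in each pair. The 8 libraries lie at 6.79 to 12.2% in Cntnap2 and at 22.8 to 33.6% in Nlgn1.

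The tallest cluster of Cntnap2 lay on chr6:45312448-45312493, 303 kb from the 5′ edge, with a height of 40. It held 5, 8, 3 and 10 tags in libraries 1 to 4 of brain 1 and 5, 4, 5 and 0 in those of brain 2, or 13.6 ± 6.92 CPM over brain 1 libraries, against 11.4 ± 8.05 over brain 2 libraries (SD, n = 4 each). The libraries of the brains overlapped widely. Without library 4 of brain 2, which had no tag there, the mean of brain 2 was 15.2 ± 3.30 CPM (SD, n = 3), above that of brain 1. The next, chr6:46772403-46772431, had a height of 39 and held 5, 7, 5 and 6 tags in brain 1 and 3, 5, 2 and 6 in brain 2. It was a narrow stack, since 92.3% of its 39 tags shared 1 start and end, and it was the only one of the 10 tallest with tags in all 8 libraries. The third, chr6:45727220-45727253, had a height of 27, with 10 tags in brain 1 and 17 in brain 2, and the fourth, chr6:45469600-45469631, a height of 22, with 10 and 12. The others among the 10 tallest were chr6:45246226-45246286 (height 16), chr6:45068485-45068518 (15), chr6:45218016-45218094 (13), chr6:45048744-45048801 (12), chr6:45246345-45246383 (12) and chr6:46575413-46575447 (12). Of the 12 clusters of Cntnap2, 8 lay in the first of the 5 segments, 2 in the second and 2 in the fourth, and 4 reached a height of 20. In 4 of the 12, over 75% of the tags shared 1 start and end.

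The tallest cluster of Nlgn1, chr3:25781061-25781123, ranked 118 by height in the series. It had a height of 137 and lay 454 kb from the 5′ edge. It held 16, 12, 28 and 20 tags in libraries 1 to 4 of brain 1 and 13, 12, 20 and 17 in those of brain 2. Scaled to depth these made 39.8 ± 15.8 CPM over brain 1 libraries, against 54.5 ± 16.1 over brain 2 libraries (SD, n = 4 each), and the brains overlapped. The second, chr3:25510146-25510213, had a height of 62, with 14, 11, 7 and 10 tags in brain 1 and 2, 4, 5 and 11 in brain 2. Its values were 21.5 ± 4.58 CPM in brain 1 and 20.6 ± 18.6 CPM in brain 2, where library 4 held as many tags as the other 3 libraries together. Without that library the mean of brain 2 was 11.4 ± 3.65 CPM (SD, n = 3). The third, chr3:25674741-25674788, had a height of 37, with 9, 7, 3 and 7 tags in brain 1 and 3, 2, 2 and 4 in brain 2. The others among the 10 tallest were chr3:25601373-25601419 (height 36), chr3:25530942-25530980 (32), chr3:25713149-25713257 (32), chr3:25512630-25512679 (29), chr3:25941338-25941374 (27), chr3:25708594-25708643 (26) and chr3:25721266-25721313 (25). Of the 64 clusters of Nlgn1, 5, 11, 22, 18 and 8 lay in the 5 segments from the 5′ edge, and 14 reached a height of 20. Over 75% of the tags shared 1 start and end in 6 of the 64.

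**Figure D5:**
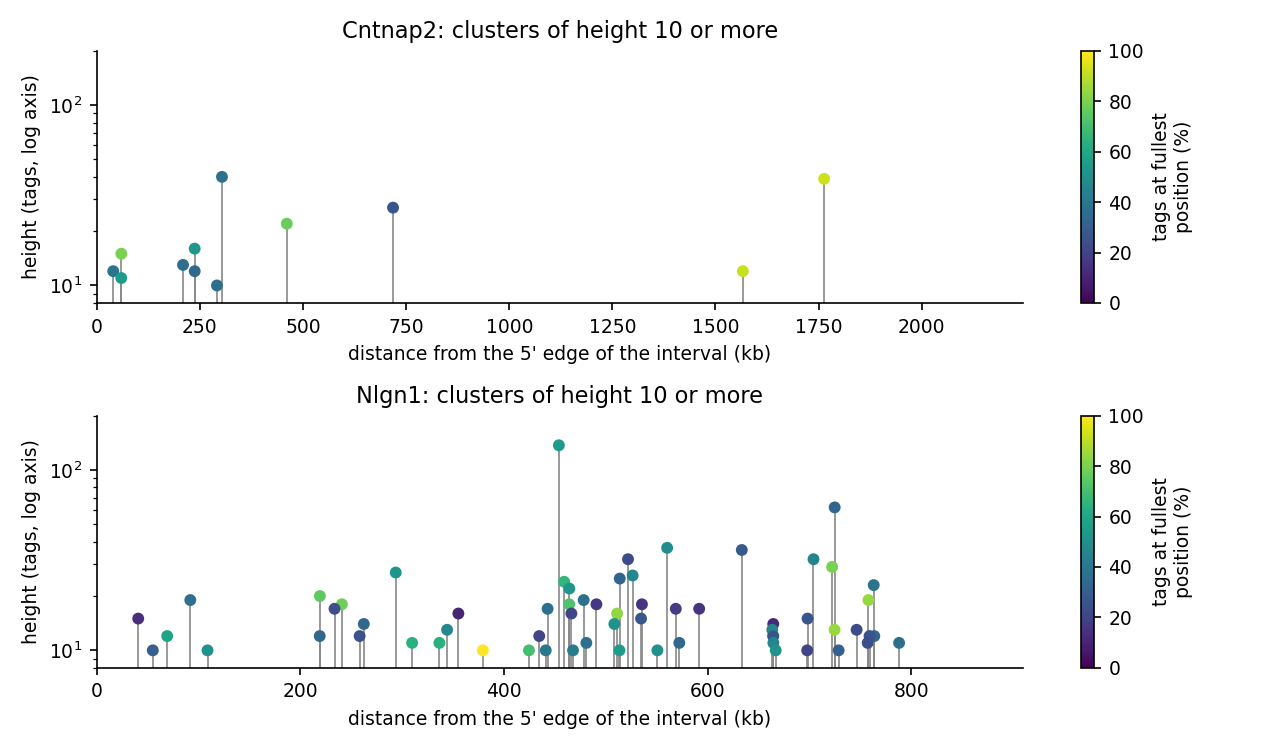
Height of each cluster of height 10 or more (log axis) against distance from the 5′ edge of the interval, coloured by the share of its tags at the fullest start and end. The 12 clusters of Cntnap2 lie mostly within the first segment, and those of Nlgn1 stand closest together in the middle of the gene, where the tallest reaches 137.

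Clusters stood close together in parts of Nlgn1. When clusters separated by 20 kb or less were linked, 26 of the 64 formed a group from 25643221 to 25810507 on chr3, 167 kb long with 644 tags, which ranked 30 by number of clusters among 13894 groups in the series. A further 13 lay from 25471205 to 25537206. The largest group of Cntnap2 held 3 clusters. The tightest array was chr3:25570353-25570645, where 4 clusters with 6 to 12 nt between them held 56 tags within 293 nt, 41 in brain 1 and 15 in brain 2. Another 3 pairs in Nlgn1 and 2 pairs in Cntnap2 stood 200 nt or less apart. Within 1000 nt of another were 4 of the 12 clusters of Cntnap2 (33.3%) and 21 of the 64 of Nlgn1 (32.8%), against 20.6% of all clusters in the series. In Cntnap2 both pairs lay in its 5′ segment, at chr6:45068298-45068518 and chr6:45246226-45246383. The first of these pairs held 24 tags in brain 1 and 2 in brain 2, and the second 17 and 12, not scaled to depth. Libraries of the brains overlapped in each cluster of both pairs. In the first pair the clusters held 5.34 ± 5.26 and 7.48 ± 5.27 CPM in brain 1. In brain 2 they held 0.93 ± 1.87 and 0.73 ± 1.47 CPM (SD, n = 4 libraries each).

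Both brains contributed to nearly all of these clusters. Tags of both were present in 12 of 12 clusters of Cntnap2 and 63 of 64 of Nlgn1, against 99.1% in the series. The exception, chr3:25810470-25810507, held 10 tags of brain 1 and 0 of brain 2, where a count of 0 allows up to 2.57 CPM in brain 2. Tags of all 8 libraries were present in 1 cluster of Cntnap2 and 16 of Nlgn1 (25%), against 23.8% in the series. Pooling before clustering favours such sharing. When clusters of height 5 or more were called in each brain alone, brain 1 gave 28 in Cntnap2, of which 8 overlapped one of brain 2 (28.6%), and brain 2 gave 12, of which 8 overlapped one of brain 1 (66.7%). In Nlgn1 brain 1 gave 107, of which 33 overlapped (30.8%), and brain 2 gave 49, of which 34 overlapped (69.4%). Over the series the shares were 33.0% for brain 1 and 66.7% for brain 2, so both genes lay near the series.

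No site within the genes passed the test between brains at the main window size. Limma voom was fitted to 3757 windows of 10 kb over the genome, of which 42 passed an adjusted p of 0.05 (1.12%). Of all windows, 0.0266% passed with brain 1 higher and 1.09% with brain 2 higher. With 1 library left out, 17 to 44 windows passed, and the number tested changed too. In the genes 25 windows were deep enough to test, 24 in Nlgn1 and 1 in Cntnap2, and 0 passed. The unadjusted limma voom p was under 0.05 in 1 of the 25, against 385 of all 3757. All libraries of brain 1 lay above all of brain 2 in 0 of the 25 (2.87% of all windows tested) and the reverse held in 1 (3.91%), chr3:25750001-25760000. The windows of Nlgn1 had log2 ratios of brain 1 over brain 2 from -0.63 to 1.28 with a median of 0.11, against 0.01 over all windows. Of these 24, 16 were above 0, against 1918 of all 3757. Neighbouring windows of a gene share its level, so their directions are not separate evidence. The Cntnap2 window, chr6:45040001-45050000, reached a TMM-scaled level of 20.3 ± 3.85 CPM for brain 1, against 27.8 ± 6.34 CPM for brain 2 (SD, n = 4 each, limma voom log2 ratio -0.53 ± 0.37 SE, adjusted p = 0.708). Among clusters, 466 were tested and 6 passed (1.29%), 0.215% of all with brain 1 higher and 1.07% with brain 2 higher. Only the tallest of Nlgn1 was deep enough, at a log2 ratio of -0.33 ± 0.26 (SE, limma voom adjusted p = 0.493). Its libraries overlapped, where 6.44% of the clusters tested had every library of brain 1 above and 6.22% every library of brain 2 above. In 1 of all 76 clusters of both genes, the one without tags of brain 2, every library of brain 1 lay above every library of brain 2, as in 2.09% of all clusters, and in 0 the reverse held (2.18%).

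Wider windows, planned as an alternative, put 20 windows of 100 kb to the test, 11 in Cntnap2 and 9 in Nlgn1. All 9 of Nlgn1 had a log2 ratio above 0, with a median of 0.16 and a range of 0.03 to 0.50. Of the 11 of Cntnap2, 6 did, with a median of 0.05 and a range of -0.38 to 0.28. Over all 9975 windows tested, 4867 were above 0 and the median was -0.01. A window that reaches past the 5′ edge of Nlgn1, chr3:26200001-26300000, was not counted among the 9 and leaned the other way. Scaled to total tags, brain 2 averaged 33.3 CPM there and brain 1 averaged 24.3, with SDs of 11.1 and 7.84 over 4 libraries each. Windows of a gene share its level here too, so the count above 0 is not separate evidence. A single window passed, chr3:25600001-25700000 in Nlgn1, where 63 of all windows passed (0.632%). With 1 library left out, calls over all windows numbered 22, 29, 46 and 63 without libraries 1 to 4 of brain 1. They numbered 16, 30, 35 and 65 without libraries 1 to 4 of brain 2. The number of windows tested also changed, to between 7633 and 11187. The TMM-scaled level of the Nlgn1 window was 288 ± 16.5 CPM for brain 1, against 206 ± 36.7 CPM for brain 2 (SD, n = 4 each), a log2 ratio of 0.50 ± 0.13 (SE, limma voom adjusted p = 0.0485). The brains did not overlap there, as in 3.41% of all windows in that direction. In 0 of the 20 did all libraries of brain 2 lie above (3.1% of all windows). The call rested on each library but library 4 of brain 2: without any one of the others the adjusted p ran from 0.0587 to 0.237, with log2 ratios of 0.41 to 0.59, and without library 4 of brain 2 it was 0.0244. With repeated rows counted once the window had a log2 ratio of 0.40 and lost the call (limma voom adjusted p = 0.0724). With 1 animal in each group the call sets these brains apart only against the spread between their libraries.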

How the data were processed

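HITS-CLIP tags crosslinked to Ptbp2 were deposited as 1 list of mapped tags, and the number of rows per library is the measurement. Other values in the deposited list, the start and end of each tag on the chromosome, were made by the authors with Bowtie, per the submitters' processing notes, which give no version and list mm8 as well as mm9. The last position on chromosome 1 was 197194446, and coordinates are taken as mm9, counted from 1. How repeated and multiply mapping reads were handled is not stated there. A code in each tag name gave its library, and 0 tags lacked one. Tags were 27 to 30 nt long.

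Tags were counted per interval, strand, window and cluster with pandas 2.3.3. Levels are tags per 1000000 tags of the library. Single values were compared with two-sided exact permutation or sign-flip tests and adjusted by Benjamini and Hochberg over 7. The design file planned limma voom on windows and clusters: limma 3.58.1 in R 4.3.3, TMM-type scaling (30% of ratios and 5% of levels trimmed), at least the rate of 10 tags at median depth in 4 libraries and 15 tags in all, threshold 0.05. It was tested on simulated data. Sites named were the 10 tallest clusters and 3 fullest 100-kb windows of each gene, and windows or clusters past the threshold. Other sites are named as exceptions or arrays seen in the data. The members, intervals and tests were chosen with earlier results of these data known. No genome or annotation of mm9 was used, so exons, introns and the sequence under clusters are not analysed here.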

Additional observations from a re-analysis of the deposited data

Results flagged for a closer look

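Each set of 4 libraries of a brain was searched for a library far from the other 3, for which chance alone gives about 1 in 20 sets. Of 62 sets, 5 had such a library. The share of Cntnap2 tags upstream of the midpoint was 68.1% in library 4 of brain 1, against 71.2 to 71.5% in the others. The log2 ratio of Cntnap2 to Nlgn1 tags per kb was -2.51 in library 4 of brain 2, against -2.14 to -2.13. The share of Nlgn1 tags upstream of the midpoint was 42.4% in library 3 of brain 1, against 39.7 to 39.9%. The Cntnap2 cluster that starts at 45068485 held 2.93 CPM in library 3 of brain 2, from 1 tag, and 0 in the other 3 libraries of that brain. The Nlgn1 cluster that starts at 25674741 held 6.53 CPM in library 3 of brain 1, against 14.9 to 16.5. Library 4 of brain 2 was also the shallowest and had the most repeated rows, and the part of these in its Nlgn1 level was not tested beyond counting repeated rows once, where it held 1577 CPM of Nlgn1 and the other libraries of brain 2 held 1260 to 1373.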

How the results depend on the processing

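Of 135 alternatives over 10 results, 119 kept the direction of every called value and the side of the threshold, and none turned a called value round. The log2 ratio of Cntnap2 between brains, which was not called, ran from -0.09 to 0.19. Summing libraries of the same brain and title letter (a or b, of a meaning the labels do not give) left 4 values. The smallest possible p of a sign-flip test is then 0.125. The density ratio was -2.33, the upstream shares of Cntnap2 and Nlgn1 were 71.4 and 41.6%, and their cluster shares were -6.13 and 10.4 percentage points (each exact sign-flip permutation adjusted p = 0.175). Windows of 100 kb in place of 10 kb gave 1 call. Over all windows of 10 kb, calls numbered 42 with TMM-type scaling, 8 with scaling by total tags, 10 with no filter, 5 with letters summed and 14 with repeated rows counted once. With 1 library left out at a time, the log2 ratio between brains ran from 0.04 to 0.11 for Cntnap2 and from 0.21 to 0.39 for Nlgn1, which passed only without library 4 of brain 2. The density ratio ran from -2.36 to -2.31, the upstream shares from 70.8 to 71.8% and from 41.2 to 41.9%, the cluster shares from -6.65 to -5.72 and from 9.74 to 10.8 percentage points, and 0 windows of 10 kb and 0 clusters were called. Same-numbered libraries did not deviate together (r of -0.03 to -0.01 over 3757 windows). They also share a title letter, and counting noise in windows of few tags can hide a shared deviation. Whether they share more than a number is therefore not settled by this r. The number was also used as a replicate block, which leaves the log2 ratios of the means at 0.08 for Cntnap2 and 0.27 for Nlgn1. Exact sign-flip tests on the log2 ratios of same-numbered libraries gave adjusted p = 0.5 and 0.292. Their smallest possible p is 0.125, so they could not pass. With that block 0 windows of 10 kb and 0 clusters were called, and the Nlgn1 window of 100 kb had a log2 ratio of 0.48 (limma voom adjusted p = 0.0635). That window kept its call with scaling by total tags (0.57, adjusted p = 0.0441). Depth limited tests within Cntnap2 to 1 window of 10 kb and 0 clusters. The alternatives tried on that window were chosen after seeing the data, as was the subtraction of opposite-strand tags, which gave an upstream share of 78.9% in Cntnap2 and 41.8% in Nlgn1.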

Other observations

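Clusters of height 10 or more also occurred opposite both genes, and were picked out after their values were seen. Opposite Cntnap2, chr6:45961688-45961721 on the minus strand held 3 tags in brain 1 and 10 in brain 2, and chr6:45693014-45693076 held 7 and 5. Opposite Nlgn1, chr3:25670956-25670992 on the plus strand held 16 tags, 13 in brain 1 and 3 in brain 2.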
